A study of Mus musculus with 38 samples.

Results

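Proliferation of neural stem/progenitor cells (NSPCs) was followed through 51 cell cycle genes, taken by symbol from a fixed list of cyclins, cyclin-dependent kinases (CDKs), replication licensing factors and mitotic genes. All 51 were among the 25965 genes measured by RNA sequencing, and all 51 had at least 1 promoter window in the chromatin data. NSPCs were derived from the subventricular zone (SVZ), the neurogenic wall of the lateral ventricle, of male C57BL/6JBabr mice aged 3 months (young adult) or 18 months (aged), with no genetic change named in the labels. Each of the 3 derivations per age combined tissue of 5 mice and was grown as neurospheres, floating clonal aggregates fed with epidermal and fibroblast growth factors, up to passage 2, so the samples are expanded cultures and not cells taken directly from the brain. RNA of 1 young adult (3 months) and 1 aged (18 months) derivation of C57BL/10 mice, kept in another facility, was sequenced in the same way. H3K4me3, H3K27me3, 5-methylcytosine (5mC) and 5-hydroxymethylcytosine were profiled in the C57BL/6JBabr derivations.

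The cell cycle runs on a relay of kinases and transcription factors. D-type cyclins with Cdk4 or Cdk6 phosphorylate the retinoblastoma protein (Rb1) and free E2F factors, which switch on cyclin E and the genes that license and copy DNA. Later the factors Mybl2 and Foxm1, with the core of the DREAM complex, drive a wave of mitotic genes, until the anaphase-promoting complex (APC/C) destroys the mitotic cyclins. In the SVZ, the dividing cells are the activated stem cells, transit-amplifying progenitors and neuroblasts, and the making of neurons there is known to fall with age.

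Factors of both waves are known to act through short recognition sequences in promoters. RefSeq promoters (GRCm38.p6, from 250 bases before to 50 bases after the start) were at hand for 41 of the 51 genes, and not for Ccna2, Ccnd1, Ccnd2, Ccne2, Mcm4, Aurkb, Tpx2, Gmnn, Rb1 and Foxm1. They were searched on both strands for an E2F site (TTTCGCGC, TTTGGCGC, TTCCCGCC or TTTCCCGC, of which the last pair can overlap each other), for the cell cycle homology region (CHR; TTTGAA or TTCGAA) and for the CCAAT box (CCAAT). Printed here, 5′ to 3′ in the direction of the gene, are the promoters of the helicase subunit Mcm6, with E2F sites and no CHR, of the proliferation antigen Mki67 and the ubiquitin-conjugating enzyme Ube2c, with CHR and CCAAT and no E2F site, of cyclin B1 (Ccnb1), with CCAAT boxes alone, and of Cdk4, with no match. Capitals mark the matches on either strand, so a CCAAT box on the opposite strand reads ATTGG and a CHR reads TTCAAA.
Mcm6, chr1:128359656-128359955, minus strand: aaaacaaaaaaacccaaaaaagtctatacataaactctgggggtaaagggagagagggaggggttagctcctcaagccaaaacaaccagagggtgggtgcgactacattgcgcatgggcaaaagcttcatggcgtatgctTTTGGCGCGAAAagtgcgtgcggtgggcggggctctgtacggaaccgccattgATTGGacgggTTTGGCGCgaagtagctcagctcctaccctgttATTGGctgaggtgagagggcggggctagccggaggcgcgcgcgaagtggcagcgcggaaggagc
Mki67, chr7:135716330-135716629, minus strand: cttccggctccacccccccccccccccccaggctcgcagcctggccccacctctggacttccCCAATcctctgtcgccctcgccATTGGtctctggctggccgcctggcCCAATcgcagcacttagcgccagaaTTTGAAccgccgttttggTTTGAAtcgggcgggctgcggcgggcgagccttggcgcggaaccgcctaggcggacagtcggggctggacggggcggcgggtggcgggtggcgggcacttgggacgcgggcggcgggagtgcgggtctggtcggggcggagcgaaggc
Ube2c, chr2:164769679-164769978, plus strand: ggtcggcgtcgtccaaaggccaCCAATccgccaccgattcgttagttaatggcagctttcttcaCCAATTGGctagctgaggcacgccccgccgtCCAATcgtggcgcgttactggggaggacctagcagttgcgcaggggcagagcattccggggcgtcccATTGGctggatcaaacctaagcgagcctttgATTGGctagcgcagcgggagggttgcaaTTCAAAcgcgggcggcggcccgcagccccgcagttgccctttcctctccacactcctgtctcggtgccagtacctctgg
Ccnb1, chr13:100786437-100786736, minus strand: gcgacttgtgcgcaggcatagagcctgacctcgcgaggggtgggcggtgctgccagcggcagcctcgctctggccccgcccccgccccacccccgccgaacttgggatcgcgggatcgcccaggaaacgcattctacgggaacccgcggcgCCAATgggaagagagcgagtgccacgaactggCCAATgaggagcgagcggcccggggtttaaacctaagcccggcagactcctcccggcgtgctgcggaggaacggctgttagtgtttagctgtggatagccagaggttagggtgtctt
Cdk4, chr10:127063285-127063584, plus strand: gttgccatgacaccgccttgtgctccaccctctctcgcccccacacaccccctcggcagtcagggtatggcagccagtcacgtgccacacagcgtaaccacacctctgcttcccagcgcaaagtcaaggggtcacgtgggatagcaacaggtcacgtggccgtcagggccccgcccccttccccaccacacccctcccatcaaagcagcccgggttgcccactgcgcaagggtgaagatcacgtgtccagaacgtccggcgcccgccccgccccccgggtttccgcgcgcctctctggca
In Mcm6 the E2F matches began at positions -110, -106 and -47 from the start, the first pair overlapping each other. In Mki67 the CHR matches began at -116 and -98. In Ube2c the CHR began at -29.

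An E2F site was found in 11 of the 41 promoters (26.8%), against 3.57% of 27025 promoters of all genes. A CHR was found in 20 (48.8%), against 19.4%, and a CCAAT box in 29 (70.7%), against 37.9%. By role, and with no test between roles, 6 of 9 promoters of origin licensing and replication fork genes held an E2F site, 3 a CHR and 7 a CCAAT box. Among the mitotic genes (mitotic cyclins and kinases, spindle checkpoint, chromosomes and spindle), 16 of 20 promoters held a CHR, 17 a CCAAT box, 15 both, and 1, that of Cdk1, an E2F site. None of the promoters of Ccnd3, Cdk4 and Cdk6 held any of them. A match is only a run of letters, and a missing match says nothing of binding.

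**Figure D1:**
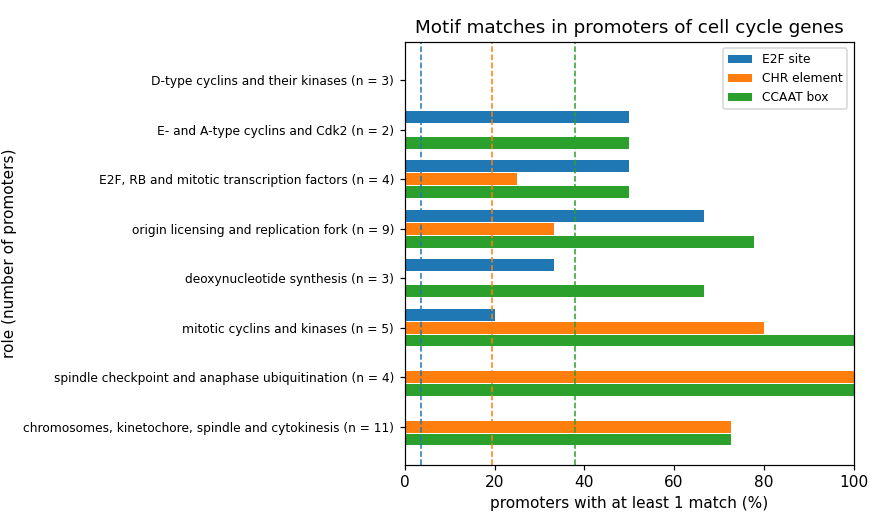
Share of promoters with at least 1 match to an E2F site, a CHR element or a CCAAT box (x axis, percent) in each role group (y axis, with the number of promoters). Dashed lines give the share among 27025 promoters; E2F sites reach 66.7% in the licensing group and CHR elements 100% in the spindle checkpoint group.

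The 8 RNA libraries held 16952486 to 41053972 reads. Values are log2 RPM, read counts scaled to library size, on which a difference of 1 is 2-fold. The 51 genes were covered by 46 reads (Cdk6 in the aged C57BL/10 library) to 67988 reads (Ccnd1 in the aged derivation 3). Counting error was therefore largest for Cdk6, and its size was not worked out for the other genes. NSPC markers summed to 6253 to 9140 RPM in every library. Microglial markers summed to 5.25 to 7.76 RPM, with 5 of 6 under 1 RPM in every library, endothelial to 1.69 to 3.03 RPM (4 of 5 under 1 RPM) and pericyte to 1.66 to 2.27 RPM (3 of 4), while neuroblast and neuron markers summed to 7.97 to 16.1 RPM. Astrocyte markers summed to 1829 to 2523 RPM, led by Aldh1l1 (mean 1040 RPM). Oligodendrocyte lineage markers summed to 1169 to 1644 RPM, led by Olig1 (mean 946 RPM). Whether such RNA came from separate cells or from the NSPCs themselves was not tested. In bulk RNA, fewer dividing cells and less RNA per dividing cell cannot be told apart.

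Compared per kb of exon over the C57BL/6JBabr libraries, the level of the 51 genes spanned from 0.261 RPM per kb for Cdk6 to 348 RPM per kb for Ccnd1. Ccnd2 (118 RPM per kb) and Cdk4 (69.5 RPM per kb) followed Ccnd1, so a D-type cyclin and its kinase partner led the list and the other partner ended it. Pcna, the sliding clamp of DNA polymerase, came next with 39.1 RPM per kb. Mki67 stood at 21.5 RPM per kb, Top2a, the topoisomerase that untangles chromosomes, at 19.9, and Mcm2, a helicase subunit, at 9.35. The median over the 51 genes was 7.86 RPM per kb. RNA of Ccnd1 also overlaps Oraov1 on the opposite strand, and 15 of the 51 genes overlap another gene of the table (Ccna2, Ccnd1, Ccnd3, Ccne2, Cdk4, Cdk6, Cdc20, Cdc45, Cdt1, Mcm7, Nusap1, E2f3, Rb1, Foxm1 and Ube2c). The library kit does not keep the strand, so reads of such pairs on opposite strands cannot be told apart.

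The first comparison asked whether NSPCs from aged mice transcribe the cell cycle genes at another level than those from young adult mice. No cell cycle gene passed the test. With limma over 14858 genes, 0 of 51 had an adjusted p under 0.05 (adjusted p = 1.00 for each), as did 0% of all genes, and 258 of all genes but 0 of the 51 had an unadjusted p under 0.05. edgeR likewise called 0 of 51 (257 genes at an unadjusted p under 0.05, none of them among the 51). The median log2 fold change of the 51 genes (aged minus young adult) was -0.03, beside 0.00 over all genes, and single values ran from -0.32 (Gmnn) to 0.12 (Kif11). Values below 0 were given by 34 genes and values above 0 by 17.

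Precision was enough to bound most of these differences. The 95% interval of the difference lay within 1.5-fold in either direction for 42 of the 51 genes, against 69.7% of all genes tested. The 9 others were Cdk6, Ccne2, Gmnn, Ccnb1, Ccnb2, Aurka, Cenpa, Cenpf and Kif11, for which this fit did not bound a difference of 1.5-fold. The fit does not pair libraries by derivation number, so its intervals include the spread between derivations. Standard errors ranged from 0.08 (Cdk2) to 0.38 (Cdk6). All 3 aged libraries lay below all 3 young adult libraries in 1 gene, Ccne1, against 2.05% of all genes, and above them in 0 genes, against 3.14% of all genes. Within derivation numbers, the aged library was the lower in all 3 pairs in 13 genes, against 13.3% of all genes, and the higher in all 3 in 0, against 15.9%. The 13 were Ccnd1, Ccnd2, Ccne1, Cdk2, E2f1, Gmnn, Mcm2, Pcna, Rrm2, Tyms, Ccnb2, Cdk1 and Birc5, none of them called with the derivation number as a block in limma. Of the marker lists, that of astrocytes summed to 2026 to 2400 RPM in the young adult and 1829 to 2043 RPM in the aged libraries. Of its 7 genes 6 lay below 0 (aged minus young adult), with a median of -0.20 and 0 called. The part of these genes in the cell cycle values was not tested.

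**Figure D2:**
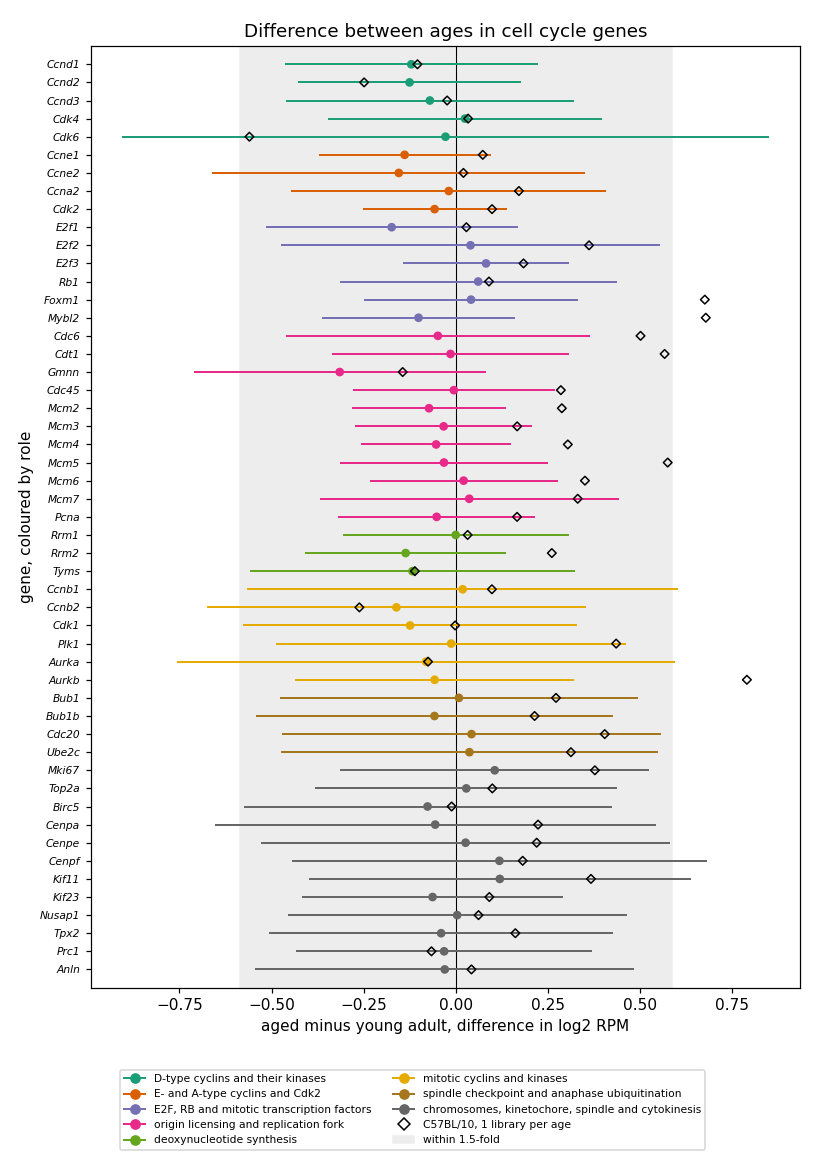
Difference between ages (x axis, aged minus young adult, log2 RPM) for each cell cycle gene (y axis). Points and bars are the limma estimate and its 95% interval over 3 derivations per age, open diamonds are the difference between the single C57BL/10 libraries, and grey marks the range within 1.5-fold; each bar crosses 0.

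Among the D-type cyclins and their kinases, which read growth factor signals, the largest differences were those of Ccnd2 and Ccnd1. Ccnd2 was at 10.07, 10.24 and 10.21 log2 RPM in the young adult and 9.94, 10.19 and 10.01 in the aged derivations 1, 2 and 3. Ccnd1 was at 10.59, 10.79 and 10.82 in the young adult and 10.50, 10.59 and 10.75 in the aged derivations. The ages overlapped in both genes, with differences of -0.13 (95% interval -0.43 to 0.17) and -0.12 (-0.46 to 0.22). The 5 genes of the group ranged from -0.13 to 0.02, with none called.

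Cyclin E starts DNA synthesis together with Cdk2. Ccne1 stood at 3.69, 3.70 and 3.65 in the young adult and 3.57, 3.53 and 3.51 in the aged derivations. The groups did not overlap, at a share of the 51 genes no larger than the 2.05% of all genes, with a difference of -0.14 ± 0.10 (SE) and an adjusted p of 1.00 by limma. Ccne2, the other E-type cyclin, was at 2.91, 3.00 and 2.48 against 2.52, 3.05 and 2.37, with full overlap and a difference of -0.15 ± 0.22 (SE). All 4 genes of this group had values below 0, from -0.15 to -0.02.

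E2F, RB and mitotic transcription factors lay between -0.17 and 0.08. E2f1, which turns on S phase genes, was at 3.58, 3.88 and 4.07 in the young adult and 3.52, 3.70 and 3.78 in the aged derivations, a difference of -0.17 ± 0.15 (SE). Mybl2, a subunit of the complex that starts the mitotic wave, was at 3.82, 3.83 and 3.61 against 3.61, 3.73 and 3.62. The ages overlapped in both.

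Among the 11 licensing and fork genes, Gmnn, the geminin gene whose protein blocks re-licensing by binding Cdt1, had the largest difference of all 51 genes. It was at 3.54, 3.42 and 3.19 in the young adult and 3.34, 3.08 and 2.79 in the aged derivations. The ages overlapped as groups. The difference was -0.32 ± 0.17 (SE), with an adjusted p of 1.00 by limma, and of 0.313 with the derivation number as a block, where it was the only gene of the 51 with an unadjusted p under 0.05 (0.00878). Mcm2 was at 6.08, 6.15 and 5.94 against 6.01, 6.05 and 5.90. Pcna was at 6.74, 6.57 and 6.41 against 6.67, 6.52 and 6.37. The 9 genes beside Gmnn and Mcm2 lay between -0.05 and 0.04. Of the deoxynucleotide genes, Rrm2, the regulatory subunit of ribonucleotide reductase, was at 6.43, 6.34 and 6.11 against 6.19, 6.30 and 5.98, and Tyms, which makes thymidylate, at 4.34, 4.09 and 3.72 against 4.17, 3.99 and 3.63, overlapping in both.

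The mitotic genes overlapped between ages without exception. Ccnb2, a partner of Cdk1, was at 4.36, 3.85 and 3.80 in the young adult and 4.28, 3.72 and 3.52 in the aged derivations. Cdk1, the kinase that drives entry into mitosis, was at 6.07, 5.62 and 5.40 against 5.90, 5.46 and 5.34. In both genes derivation 1 was the highest of each age and derivation 3 the lowest, and the spread between derivations exceeded that between ages. Bub1b, a checkpoint kinase at unattached kinetochores, was at 5.45, 5.02 and 4.74 against 5.38, 4.91 and 4.76, and Cdc20, the activator of the APC/C, at 5.58, 5.22 and 4.81 against 5.63, 5.15 and 4.96. Kif11, the motor that separates spindle poles, was at 6.30, 5.67 and 5.42 against 6.14, 6.00 and 5.62, and Cenpf, a kinetochore protein, at 6.65, 5.93 and 5.68 against 6.49, 6.19 and 5.93. The usual markers stood likewise. Mki67 was at 8.05, 7.66 and 7.35 in the young adult and 7.93, 7.88 and 7.56 in the aged derivations, and Top2a at 7.85, 7.34 and 7.18 against 7.68, 7.46 and 7.30.

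None of the 7 CDK inhibitors, which hold these kinases back, passed the test between ages by limma. Cdkn1a (p21) was at 8.02, 8.04 and 8.09 in the young adult and 8.17, 7.85 and 8.08 in the aged derivations, and Cdkn2a, whose locus encodes p16 and Arf and is known to rise with age in many tissues, at 5.12, 5.41 and 5.33 against 5.30, 5.28 and 5.32. The differences were -0.02 (95% interval -0.26 to 0.22) and 0.01 (-0.22 to 0.23). Cdkn2b was at 5.26, 5.27 and 5.25 against 5.32, 4.97 and 5.18, and Cdkn2c at 5.17, 5.21 and 4.96 against 5.39, 5.02 and 5.12. Cdkn1b (p27) was at 6.05, 5.84 and 5.85 against 6.09, 5.99 and 5.93, and Cdkn2d at 4.76, 4.45 and 4.54 against 4.88, 4.13 and 4.48. Cdkn1c (p57) was near the lower end of the RNA data, at -0.50, 0.16 and -0.54 against -0.11, -0.04 and -0.40. All 7 overlapped between ages.

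The wider machinery was read from lists of further genes. Of 13 other pocket proteins, E2Fs and DREAM subunits, 17 origin recognition, helicase and polymerase genes, 7 Wee1, Cdc25 and checkpoint kinase genes, 14 APC/C genes, 23 other mitotic genes and 13 p53 targets and antiproliferative genes, 0 were called. The medians of the lists ran from -0.03 to 0.05. The largest differences were those of Fbxo5, the inhibitor of the APC/C, and Gadd45g, a stress-responsive growth inhibitor. Fbxo5 was at 3.58, 3.25 and 2.86 in the young adult and 3.73, 3.56 and 3.14 in the aged derivations, and Gadd45g at 7.72, 7.53 and 7.54 against 8.13, 7.67 and 7.74. The aged library was the higher in each derivation number in both, with a difference of 0.25 each and an adjusted p by limma of 1.00 (0.494 and 0.213 with the derivation number as a block). In C57BL/10 (young adult and aged), Fbxo5 was at 1.63 and 2.38 and Gadd45g at 6.98 and 7.85. The largest differences of the other lists were -0.15 for Lin37, a DREAM subunit, -0.21 for Gins1, a helicase subunit, 0.11 for Cdc25c, a phosphatase that activates Cdk1, and -0.14 for Spc24, a kinetochore protein, none of them called. Lin37 was at 3.02, 2.75 and 2.89 in the young adult and 3.19, 2.43 and 2.59 in the aged derivations, with 2.96 and 2.78 in C57BL/10. Gins1 was at 2.86, 2.76 and 2.38 against 2.71, 2.51 and 2.16, with 1.52 and 1.79 in C57BL/10. The ages overlapped in both. Cdc25c was at 3.47, 2.72 and 2.68 against 3.61, 2.94 and 2.64, with 2.07 and 2.21 in C57BL/10, and Spc24 at 3.28, 3.09 and 2.86 against 3.36, 2.72 and 2.73, with 1.76 and 2.37, again with overlapping ages.

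The libraries of 1 derivation number deviated together in both ages, and on that ground the numbers were compared beside age. That ground comes from these same data. The counts and p-values of the comparison therefore do not show that same-numbered libraries belong together. Here the cell cycle genes differed. With a limma F test of the derivation number, adjusted for age, 36 of the 51 genes were called (adjusted p under 0.05), against 22% of all genes. Derivation 1 was the highest and derivation 3 the lowest in both ages in 30 of the 51 genes, against 9.87% of all genes, and the opposite extremes were found in 4 of the 51 genes, against 13.6% of all genes. The median of derivation 1 minus derivation 3 was 0.46 over the 51 genes (1.38-fold) and -0.02 over all genes. The sources used here do not give whether a young adult and an aged library of 1 number share a day of preparation.

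Mitotic genes made up 22 of the 36 calls. All 22 mitotic genes were called, and in 21 of them derivation 1 was the highest and derivation 3 the lowest in both ages; in Kif23 the aged derivation 2 lay below the aged derivation 3. Their median difference between derivations 1 and 3 was 0.66 (1.58-fold), from 0.39 (Kif23) to 0.96 (Aurka). Aurka, the centrosome kinase, was at 4.78, 4.17 and 3.74 in the young adult and 4.66, 4.00 and 3.79 in the aged derivations 1, 2 and 3 (adjusted p = 0.000245 by limma). Cenpa, the histone of the centromere, was at 5.19, 4.75 and 4.30 against 5.16, 4.51 and 4.39 (adjusted p = 0.000608 by limma). Ccnb1, whose product activates Cdk1, was at 5.91, 5.20 and 4.97 against 5.71, 5.40 and 5.02 (adjusted p = 0.000622 by limma). In each of these 3 genes both libraries of derivation 1 lay above all others. The 23 other mitotic genes, a separate list, gave 21 calls and a median of 0.63.

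Of the 11 licensing and fork genes, 3 were called (Mcm5, Mcm7 and Pcna), near the 22% of all genes, with a median difference between derivations 1 and 3 of 0.24. Cdt1 and Cdc6, which load the helicase onto origins, were highest in derivation 2. Cdt1 was at 3.93, 4.14 and 4.10 in the young adult and 3.79, 4.26 and 4.07 in the aged derivations, and Cdc6 at 3.16, 3.42 and 2.86 against 2.91, 3.32 and 3.06, neither called. All 3 deoxynucleotide genes were called, with a median of 0.38. Whether these groups differed less than the mitotic genes was not tested.

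In the D-type group the order was mixed. Ccnd3 was at 5.28, 5.64 and 5.89 in the young adult and 5.37, 5.45 and 5.78 in the aged derivations, with derivation 1 the lowest and derivation 3 the highest in both ages (adjusted p = 0.00599 by limma). Cdk6 was at 1.33, 1.80 and 2.28 against 0.95, 2.26 and 2.12, lowest in derivation 1 (adjusted p = 0.00781). Cdk4 was at 7.95, 7.89 and 7.54 against 8.12, 7.73 and 7.60, highest in derivation 1 (adjusted p = 0.0102). Rb1, the brake that these kinases release, was at 5.14, 5.21 and 5.57 against 5.06, 5.43 and 5.60, again lowest in derivation 1 (adjusted p = 0.00944). The rule for RNA values did not name Ccnd3, Cdk4, Rb1, Aurka, Cenpa, Cdc6 and Cdt1, which were chosen here after their values were seen.

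Sums of some marker lists moved with the derivation number. Ependymal markers summed to 51.5 and 60.4 RPM in derivation 1, 80.2 and 102.7 in derivation 2, and 123.7 and 131.9 in derivation 3, the reverse of the mitotic genes, with Foxj1, the master regulator of motile cilia, at 4.92, 5.99 and 6.60 in the young adult and 5.08, 5.72 and 6.51 log2 RPM in the aged derivations. Summed NSPC markers were 7756 and 8101 RPM in derivation 1, 6423 and 7408 in derivation 2 and 6253 and 6782 in derivation 3. Vim led this sum (mean 3606 RPM), and single NSPC markers were mixed. Derivation 1 was the highest and 3 the lowest in both ages in 4 of the 8, with the reverse in 2. Derivation 1 minus 3 ran from -0.48 to 0.80 (median 0.14). Neuroblast and neuron markers summed to 7.97 and 8.65 RPM in derivation 1, 10.7 and 11.0 in derivation 2 and 10.9 and 13.4 in derivation 3. Their median of derivation 1 minus 3 was -0.69, with 0 of 4 markers called. For the 7 astrocyte markers that median was -0.46, with 3 called. Their sums were 1837 and 2026 RPM in derivation 1, 1829 and 2400 in derivation 2 and 2043 and 2294 in derivation 3. Derivation 2 thus held both the lowest and the highest astrocyte sum. Of the 8 oligodendrocyte lineage markers 5 were called, in both directions, with derivation 1 minus 3 from -0.58 to 1.55. The same test called 3 of the 8 NSPC markers and 2 of the 3 ependymal markers tested. These counts stand beside 22% of all genes called, and each list is short. Derivation 1 was also the deepest at each age, with 41053972 reads in the young adult and 39993194 in the aged library, against 26096337 and 39470818 in derivation 3 and 16952486 and 27689318 in derivation 2. The part of the markers and of depth in the derivation difference was not tested. Fewer of the 51 genes were called by the derivation test without the young adult or without the aged derivation 3. Either fit leaves 1 library of that number, and the share of all genes called there was not compared.

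**Figure D3:**
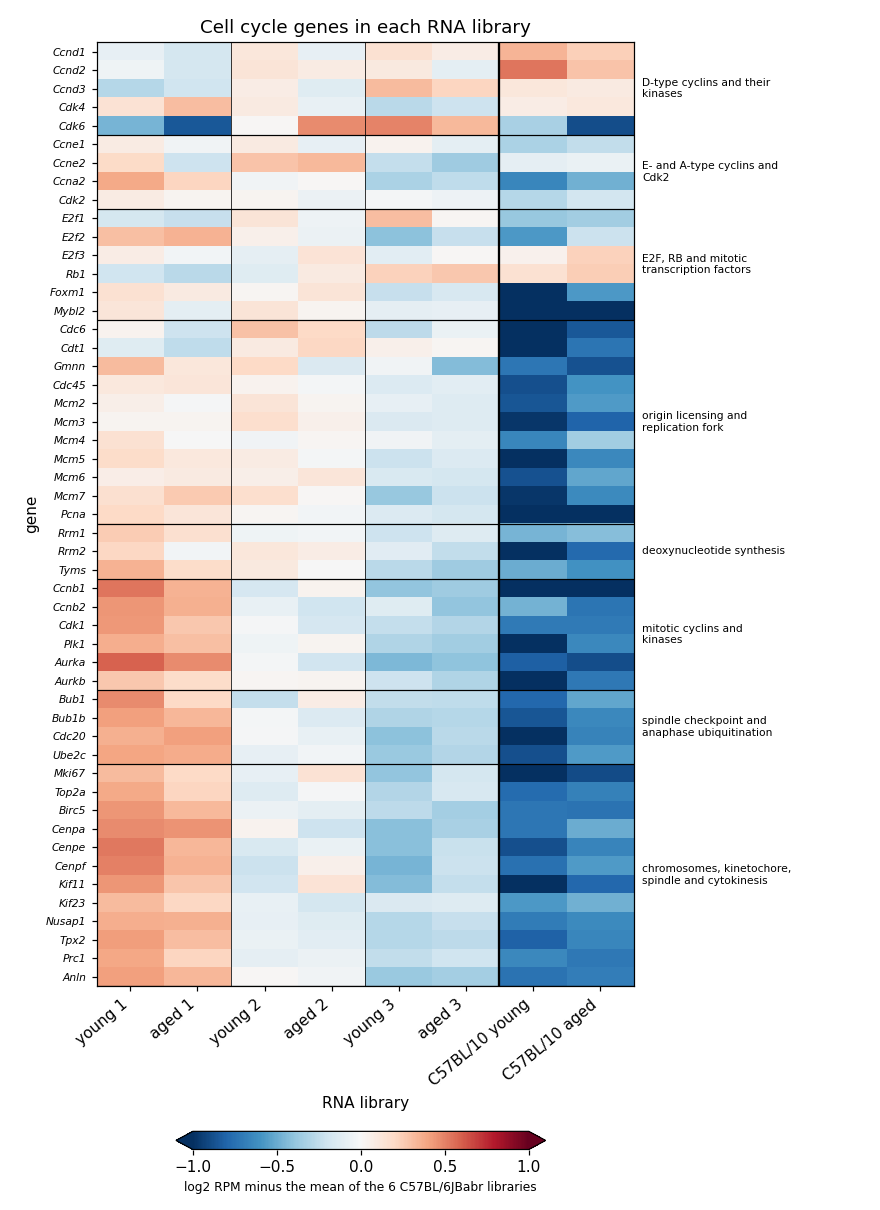
Log2 RPM of each cell cycle gene (y axis, grouped by role) in the 8 RNA libraries (x axis, same-numbered derivations side by side), as the difference from the gene's mean over the 6 C57BL/6JBabr libraries. Colours saturate at -1 and 1; mitotic genes are above their mean in both libraries of derivation 1 and below it in both of derivation 3, and most genes are below it in the C57BL/10 libraries.

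The C57BL/10 libraries were lower than the C57BL/6JBabr libraries in most of the 51 genes. Strain and facility cannot be told apart here, and each age has 1 C57BL/10 library. The model treats the 6 C57BL/6JBabr libraries as independent although same-numbered libraries deviated together, so its counts and p-values do not allow for the derivation sets. In a limma model of age and strain, 36 of the 51 genes were called lower in C57BL/10, against 11.5% of all 14828 genes tested, and 1 was called higher, against 18.2%. In log2 RPM the median of all genes was itself higher by 0.17 in C57BL/10, so values are also given relative to that median. The median of the 51 genes was -0.71, or -0.89 relative to all genes. Both C57BL/10 libraries lay below all 6 C57BL/6JBabr libraries in 42 of the 51 genes, against 13% of all genes. edgeR with its own scaling, under which the median of all genes was -0.01, called 41 of 51 lower, against 13.1% of all genes, and 0 higher, against 4.25%.

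Ccnb1 and Pcna differed most. Ccnb1 was at 3.18 (young adult) and 3.28 log2 RPM (aged) in C57BL/10, against 4.97 to 5.91 in C57BL/6JBabr. The estimate was -2.14 ± 0.24 (SE), 4.40-fold lower, with an adjusted p of 0.000124 by limma. Pcna was at 4.93 and 5.10 in C57BL/10 against 6.37 to 6.74, an estimate of -1.53 ± 0.11 (SE), 2.89-fold lower, with an adjusted p of 4.17e-06 by limma. A near-identical processed copy, Pcna-ps2, was listed at 6.05 to 6.46 in C57BL/6JBabr and at 4.44 and 4.17 in C57BL/10, so the value of Pcna is uncertain where reads could be split between the copies. The next in size was Mybl2, at 1.92 and 2.60 against 3.61 to 3.83 (-1.44 ± 0.17 SE, adjusted p = 0.000169 by limma).

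By role, all 11 licensing and fork genes were called lower in C57BL/10, with a median of -0.81 and a range from -1.53 to -0.50, and so were all 3 deoxynucleotide genes (median -0.55) and all 4 spindle checkpoint genes (median -0.73). Of the 4 E- and A-type cyclins and Cdk2, only Ccna2 was called lower by limma (3 of the 4 by edgeR), with a group median of -0.26. Mcm2 was at 5.16 and 5.45 against 5.90 to 6.15. Gmnn was at 2.50 and 2.36 against 2.79 to 3.54. Rrm2 was at 5.18 and 5.44 against 5.98 to 6.43, and Tyms at 3.50 and 3.39 against 3.63 to 4.34, so none of these genes overlapped. Ccne1 was at 3.29 and 3.36 against 3.51 to 3.70, while Ccne2, at 2.64 and 2.66, lay inside the range of 2.37 to 3.05. Of the 12 chromosome and spindle genes 10 were called lower, and of the 6 mitotic cyclins and kinases 5, the exceptions being Cenpa, Cenpf and Ccnb2. Cdk1 was at 4.92 in both C57BL/10 libraries against 5.34 to 6.07, and Ccnb2 at 3.45 and 3.19 against 3.52 to 4.36. Bub1b was at 4.19 and 4.40 against 4.74 to 5.45, and Cdc20 at 4.15 and 4.56 against 4.81 to 5.63. Kif11 was at 4.71 and 5.08 against 5.42 to 6.30, and Cenpf at 5.40 and 5.58 against 5.68 to 6.65. In all 6 the strains did not overlap. Mki67 was at 6.47 and 6.85 against 7.35 to 8.05 (-1.08 ± 0.17 SE, adjusted p = 0.00161 by limma) and Top2a at 6.69 and 6.79 against 7.18 to 7.85 (-0.72 ± 0.16 SE, adjusted p = 0.0110 by limma). In both markers the strains did not overlap.

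Of the 5 D-type cyclins and kinases, which act at the start of the cycle, 0 were called lower, against 11.5% of all genes. Their estimates ran from -0.60 to 0.41, so the group was mixed. Ccnd2 was at 10.65 and 10.40 in C57BL/10 against 9.94 to 10.24, called higher by limma (0.41 ± 0.12 SE, adjusted p = 0.0266) and not by edgeR (0.24, adjusted p = 0.163). Ccnd1 was at 11.01 and 10.91 against 10.50 to 10.82, with an estimate of 0.29 (0.11 relative to all genes) that was not called. The group median of 0.10 was -0.07 relative to all genes. Among the factors, Foxm1 and Mybl2 were called lower, while E2f1 (3.38 and 3.41 against 3.52 to 4.07), E2f2, E2f3 and Rb1 were not called by limma.

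**Figure D4:**
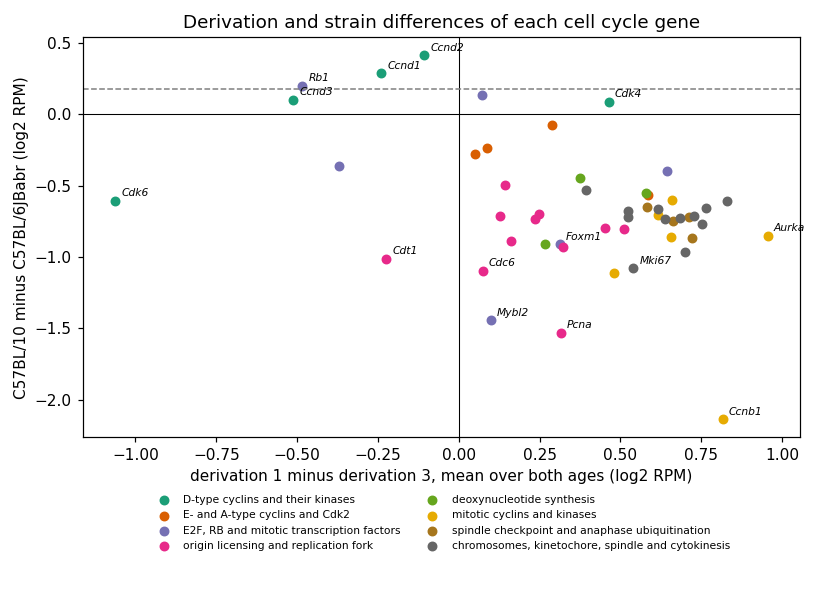
For each cell cycle gene, coloured by role, the difference between derivations 1 and 3 (x axis, mean over both ages) and between C57BL/10 and C57BL/6JBabr (y axis), in log2 RPM. The dashed line is the median of all genes on the y axis (0.17); mitotic genes lie to the right from 0.39 to 0.96, licensing genes between -0.22 and 0.51, and both below 0 on the y axis.

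CDK inhibitors were split between the strains. Cdkn2a was at 6.15 and 6.14 in C57BL/10 against 5.12 to 5.41 (0.85 ± 0.09 SE, adjusted p = 6.1e-05 by limma), Cdkn2b at 6.36 and 5.90 against 4.97 to 5.32 (0.92 ± 0.11 SE, adjusted p = 0.000227), and Cdkn1a at 8.58 and 8.63 against 7.85 to 8.17 (0.56 ± 0.09 SE, adjusted p = 0.00207). These 3 were called higher, also by edgeR (0.68, 0.75 and 0.39), against 18.2% of all genes by limma and 4.25% by edgeR. Cdkn2c was called lower, at 4.43 and 4.70 against 4.96 to 5.39, and so was Cdkn1c, at -2.18 and -1.16 against -0.54 to 0.16. Cdkn1b, at 5.81 and 5.82 against 5.84 to 6.09, and Cdkn2d, at 4.26 and 4.05 against 4.13 to 4.88, were not called by limma, while edgeR called Cdkn1b lower (-0.32, adjusted p = 0.0403). Of the 13 p53 targets and antiproliferative genes, 5 were called higher and 1 lower by limma, against 18.2% and 11.5% of all genes. By edgeR with its own scaling, 2 were called higher and 3 lower, against 4.25% and 13.1% of all genes. Ccng1, a p53 target, was at 9.43 and 8.98 against 8.09 to 8.27, and Mdm2, the p53 ubiquitin ligase, at 6.96 and 6.86 against 6.21 to 6.48; both were picked after their values were seen. Both were called higher by either tool. The 3 called lower by edgeR were Gadd45b, a stress-responsive gene, at 4.23 and 4.35 against 4.84 to 5.49, Btg1, an antiproliferative gene, at 5.94 and 6.16 against 6.05 to 6.52, and Trp53, which encodes p53, at 5.25 and 5.50 against 5.45 to 5.62. Of the 23 other mitotic genes, 16 were called lower and 1, Zwint, higher by limma, and 19 lower and 0 higher by edgeR, against the same shares. Of the 14 APC/C genes, 2 were called lower (Cdc26 and Fbxo5) and 4 higher by limma, against 18.2% of all genes called higher, and 3 lower and 0 higher by edgeR.

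The number of strain calls changed with the libraries included, while the median changed less. With 1 C57BL/10 library left out, the spread comes from the C57BL/6JBabr libraries alone and the lone library is assumed to vary like them. Without the young adult C57BL/10 library the median over the 51 genes was -0.63, and without the aged C57BL/10 library -0.77. Fewer of the 51 were called in both fits than with all libraries. Without derivation 2 of both ages 17 of the 51 were called. The share of all genes called in these fits was not compared, so a general loss of calls cannot be told apart. Ependymal markers summed to 104.7 and 124.1 RPM in C57BL/10, within the range of the C57BL/6JBabr libraries, and neuroblast and neuron markers to 11.8 and 16.1 RPM against 7.97 to 13.4 RPM. NSPC markers summed to 7749 and 9140 RPM against 6253 to 8101 RPM, astrocyte markers to 1838 and 2523 against 1829 to 2400 RPM, and oligodendrocyte lineage markers to 1350 and 1644 against 1169 to 1405 RPM, each with 1 C57BL/10 library above the C57BL/6JBabr range. The sums do not allow for the higher median of all genes in C57BL/10. Relative to that median, the strain estimates had medians of -0.03 (NSPC), 0.08 (astrocyte) and -0.24 (oligodendrocyte lineage). The part of these markers in the strain difference was not tested.

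Within C57BL/10, the aged library was the higher in 40 of the 51 genes, against 7074 of all 14828. The median difference was 0.17 over the 51 genes and -0.01 over all genes, with no replicates and so no test. Cell type markers differed between the same 2 libraries: summed NSPC markers were 9140 RPM in the young adult and 7749 in the aged library, astrocyte markers 2523 and 1838, oligodendrocyte lineage markers 1350 and 1644, and neuroblast and neuron markers 11.8 and 16.1 RPM, and their part in the difference was not tested. The aged value was higher by 1.5-fold or more in 3 of the 51 genes, against 5.06% of all genes, and lower by as much in 0, against 5.05%. The 3 were Aurkb, the kinase of the chromosomal passenger complex (2.75 young adult, 3.54 aged), Foxm1 (4.04 and 4.71) and Mybl2 (1.92 and 2.60). Just short of the threshold lay Mcm5 (4.41 and 4.98) and Cdt1 (2.75 and 3.32). Just short of it in the other direction lay a gene of the D-type group, at -0.56, the lowest difference of the 51. The median of that group was -0.10. Whether the age difference differs between strains was tested by the interaction in limma, which called 0 of the 51 genes, against 0.00674% of all genes (adjusted p = 1.00 for each of the 51). At an unadjusted p under 0.05 there were 4 of the 51 by limma (240 of 14828 genes), 4 by edgeR (139 of all genes) and 12 with the derivation number as a block (942 of all genes), where 0 of 51 and 36 of all genes were called. The C57BL/10 age difference rests on 1 library per age, so this test takes its spread from the C57BL/6JBabr libraries alone and assumes that C57BL/10 libraries vary like them. The standard error of the interaction had a median of 0.35 over the 51 genes, so that a difference of 0.35 between the strains' age effects was within its own error.

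The promoters of the cell cycle genes carried H3K4me3 at both ages. Values are 1 pooled log2 RPM per age in windows of 5001 bases around a transcription start, with no replicates and no test, and the window with the highest H3K4me3 was taken for each gene. For Cdk1, Bub1b, Cdc20 and Top2a that window was centred on a start inside the gene. H3K4me3, a mark of active promoters, ranged from 3.27 (Ccnd3) to 6.92 (Ccnd1) in young adult and from 3.50 (Ccnb2) to 7.13 (Ccnd1) in aged NSPCs. The medians were 5.56 and 5.73, against 3.95 and 4.08 over all genes. All 51 windows were higher in aged NSPCs, by 0.02 (Ccnb2) to 0.45 (Kif11, 6.14 to 6.60), with a median of 0.22. The same median, 0.22, was found over the 12966 windows of all genes with a mean above 4. A 1.5-fold difference with a log2 RPM above 1 was found in 0 of the 51, against 0.212% of all genes.

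H3K27me3, the Polycomb mark of silent promoters, was mostly below the Input, the chromatin before precipitation. It exceeded the Input in both ages in 3 of the 51 windows, against 8270 of 25887 (31.9%). These were Cdk6, at 3.38 in young adult and 3.60 in aged NSPCs (Input 1.08 and 0.73), Bub1, at 1.78 and 1.52, and Rrm1, with an aged value of 0.94 and a difference of -0.56 (aged minus young adult). The Cdk6 window, of the gene with the lowest RNA level per kb, was also high in H3K4me3, at 6.77 and 7.00. H3K27me3 was higher in aged NSPCs in 14 of the 51 windows, against 12191 of all 25887, with a median change of -0.31, beside -0.02 over all genes. The levels were unlike, with medians of -0.33 (young adult) and -0.58 (aged) over the 51 and 0.39 and 0.34 over all genes. No comparison with windows of like level was made. The largest difference was that of E2f3, from -2.39 to -0.70, with both ages below the Input. The 1.5-fold rule was met by 1 gene, Cdk4 (1.08 to 0.31, near an Input of 1.01 and 0.77), against 1.5% of all genes.

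**Figure D5:**
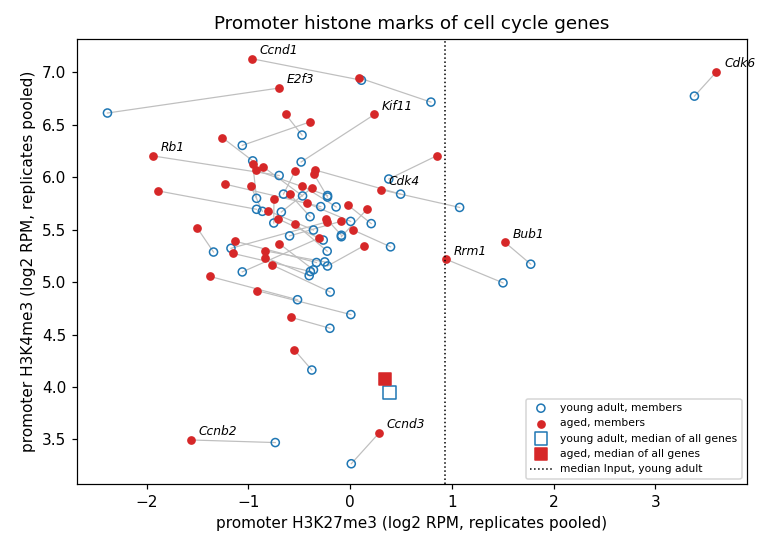
Promoter H3K27me3 (x axis) and H3K4me3 (y axis) of the 51 genes in log2 RPM, young adult as open and aged as filled circles joined by a line, with the median of all genes as squares and the median Input as a dotted line. Cdk6 lies apart at an H3K27me3 of 3.38 and 3.60; most others lie left of the Input and above the median of all genes.

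The promoters held little 5mC close to the start. In oxBS libraries, where 5mC is read without 5-hydroxymethylcytosine, calls were summed over 500 bases on either side of the start of the same window, and 44 of the 51 genes had at least 10 calls in every library. The median 5mC level was 0.318% over these 44 and 1.42% over all 14797 genes tested, and 41 of the 44 lay below 5%. Over 2500 bases on either side the median was 20.6% over the 51 genes, of which 3 lay below 5%. It was 33.2% over all 23796 genes tested in that wider window, with 0 called. No gene was called between ages (0 of 44 and 0% of all genes by the quasi-binomial test), and at an unadjusted p under 0.05 there were 2 of 44 and 582 of all genes. The largest difference was that of Cdc6, with 0% in young adult NSPCs, over 176 calls (which allows up to 1.70%) and 3.76% in the aged, over 133 calls (p = 0.0139 by the quasi-binomial test across all genes, adjusted p = 0.898). At the start of its principal transcript, Cdc6 stood at 0% and 2.07% (adjusted p = 0.905 by the quasi-binomial test across all genes). The highest levels were those of Ccnb1 (13.3% of 75 calls and 13.1% of 61) and Ccnd3 (6.94% of 144 and 6.92% of 159). The Ccnb1 value belongs to this window, since at the start of its principal transcript it stood at 2.92% of 137 calls and 1.09% of 183.

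The genes with too few calls, 7 in all, included Cdk1, Bub1b, Cdc20 and Top2a, whose window was centred on a start inside the gene and held 70.7% to 88.4% 5mC in young adult NSPCs over 31 to 43 calls. Rb1, also among the 7, held 25.9% of 58 calls in young adult and 11.1% of 45 in aged NSPCs. At the start of its principal transcript it held 0% of 294 and 0% of 390 calls, which allows up to 1.02% and 0.77%. At the start of the principal transcript, a choice made after these values were seen, 49 genes could be tested, with a median of 0.341%, a highest level of 7.23% and 0 called. The largest difference there was that of Bub1b, at 9.57% of 115 calls and 1.37% of 73 (adjusted p = 0.905 by the quasi-binomial test). There Cdk1 stood at 1.94% (206 calls) in the young adult group and 1.82% (165 calls) in the aged group, and Mki67, too thinly covered in 1 or more libraries for the test, at 0% of 263 calls in young adult NSPCs. Intervals and limits of this kind cover counting error only.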

How the data were processed

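RNA was sequenced from 3 young adult and 3 aged C57BL/6JBabr derivations and from 1 derivation per age of C57BL/10. Upstream tools named in the submitters' processing notes, with no role given, were Bismark 0.12.5, Bowtie2 2.2.5, FastQC 0.10.1, STAR 2.3.0, Trim Galore 0.3.7 and 0.4 and bcl2fastq 2.15.0.4, with the build GRCm38. RNA values were deposited as log2 RPM per gene and library, and genes without a read were set by the authors to the value of 0.9 reads. Whole reads were recovered from these values (100% within 0.02 of a whole number among the 11686 to 14404 low values per library that can show it), and 65.5% to 69.3% of the reads of a library fell on genes. ChIP values were deposited by the authors as 1 pooled log2 RPM per age and window. Methylation files held the counts of methylated and unmethylated calls per site as deposited by the authors; the deposited percent per site was not used.

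Genes averaging -2 log2 RPM or more over the libraries of a fit were tested in limma 3.58.1 (R 4.3.3) for age, for derivation number beside age, for age and strain, and for their interaction, with Benjamini-Hochberg adjustment over all genes and a threshold of 0.05. Alternatives were edgeR 4.0.16 and DESeq2 1.42.0 on the recovered reads, quantile normalization, no filter, log2(RPM + 1) with its pseudocount of 1, and leaving out libraries. 5mC calls were summed per promoter in each oxBS library with at least 10 calls, and compared by a quasi-binomial model whose dispersion was moderated with a prior fitted by limma on promoters with both kinds of call in every library. Scripts were tested on simulated data. Tables were joined in Python 3.11.15. P-values of the main age, strain and interaction tests are set against the spread between these derivations. Those of the derivation test and of the block fits are set against the disagreement between same-numbered libraries. Those of the 5mC test rest on the counts of calls and on that moderated dispersion, held at 1 or above.

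Deviations of same-numbered young adult and aged libraries from their age means correlated at 0.659, 0.179 and 0.724 over 14858 genes, all above 0.1. The derivation number was therefore used in the derivation test and as a block in alternative fits. The main fits of age, strain and interaction did not pair libraries. The methods state that derivations were made on different days.

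The 51 genes, their role groups and the further lists were chosen with earlier results of these data known. Values in every library are given for the 2 genes of each role group with the largest difference between ages, the 2 with the largest strain effect, the highest and lowest level per kb, Mki67, Top2a, Ccnd1, Ccnd2, Pcna and Mcm2, all CDK inhibitors, and the largest difference of each other list. For Cdk6, the gene with the lowest level per kb, only the C57BL/6JBabr values are given.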

Additional observations from a re-analysis of the deposited data

How the results depend on the processing

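No cell cycle gene was called between ages under any of the alternatives run, which were edgeR, DESeq2, the derivation number as a block, quantile normalization, no filter, log2(RPM + 1) and leaving out each library. Over all genes the count was 0 by limma and edgeR, 4 by DESeq2 and 74 with the block. The median difference over the 51 genes ran from -0.15 to 0.08 when a library was left out. With the derivation number as a block in the paired fit, 0 of 51 genes were called for age, 0 for the interaction and 0 of 44 for 5mC, and the block changed no call of a cell cycle gene. By edgeR and DESeq2, Ccnb1 (-0.021 and -0.016) and Cdk6 (0.030 and 0.032) changed sign between ages. Leaving out 1 library turned the sign of the age difference in 12 of the 21 genes named by the rule, with ranges of -0.24 to 0.13 for Bub1b, -0.18 to 0.29 for Ccnb1, -0.38 to 0.018 for Ccnb2, -0.15 to 0.23 for Cdc20, -0.29 to 0.062 for Cdk1, -0.27 to 0.39 for Cdk6, -0.085 to 0.40 for Cenpf, -0.069 to 0.37 for Kif11, -0.064 to 0.29 for Mki67, -0.13 to 0.033 for Pcna, -0.11 to 0.22 for Top2a and -0.28 to 0.031 for Tyms. Gmnn ran from -0.45 to -0.18. Calls between derivation numbers ranged from 21 to 41 of 51 when a library was left out and stood at 38 by edgeR. Calls between strains ranged from 30 to 40 when 1 C57BL/6JBabr library was left out. They ranged up to 42 when a derivation number was left out in both ages, with 17 without derivation 2. Leaving out 1 C57BL/10 library also lowered the count, but leaves 1 library of that strain. The shares of all genes called in these fits were not compared. The causes of these shifts were not tested, beyond the smaller number of libraries. In H3K27me3, Cdk4 no longer passed at 2-fold or with the Input subtracted (0 of 51 each). The derivation number could not enter the strain fit as a fixed block, since the C57BL/10 libraries form a level of their own. Other ways of allowing for the derivation sets were not run. The edgeR fits of derivation and interaction, leaving out libraries from these and from the strain fit, and the principal-transcript window for 5mC were chosen after seeing the data.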
